A study of Homo sapiens with 16 samples.

Results

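The genes described here are those that encode voltage-gated and related ion channels. They were taken as every protein-coding gene of GENCODE release 44 whose symbol begins with KCN, SCN plus a digit, HCN plus a digit, or CACN, which gave 140 of 20033 genes. The set holds 40 pore-forming and 13 auxiliary voltage-gated potassium channel genes, 16 inward rectifiers, 15 two-pore domain potassium channels, 12 calcium- or sodium-activated potassium channel genes, 4 HCN genes, 10 pore-forming and 4 beta sodium channel genes, and 26 calcium channel genes (10 pore-forming, 4 alpha2delta, 4 beta and 8 gamma). The rule used symbols and no measured value, and the set itself was proposed with earlier results of these data known. The cells were MCF-10A, a nontransformed human breast epithelial line, kept in culture and exposed for 24 hours either to PBS (Vehicle) or to 5 mM octanoic acid (OA), a medium-chain fatty acid. CUT&RUN, in which an antibody directs micrococcal nuclease to cut chromatin, was run in 3 cultures per treatment with antibodies to H3K4me3 and to H3K27me3, and 2 untreated libraries each were made with H3K4me3 and IgG antibodies. All libraries came from 1 cell line, so the spread between replicates is that between cultures and library preparations.

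Ion channels set the membrane potential and carry potassium, sodium or calcium across it. Many are characteristic of neurons, muscle or heart, and their genes are often kept silent in other tissues by Polycomb complexes, which lay down H3K27me3, or by the repressor REST, which binds a defined element near neuronal genes. H3K4me3 marks the start sites of genes that are active or poised, most of all those rich in CpG dinucleotides. The question asked of these genes was whether H3K4me3 appeared at their start sites after OA. The measure used was the length of DNA under peaks within 3 kb of any annotated start site of a gene, called coverage here, in each library. A region is the union of overlapping peaks of the 6 libraries of a mark, and was kept if 2 or more of the libraries contributed a peak. It is called OA-only when all 3 OA libraries and no vehicle library had a peak, and vehicle-only in the reverse case.

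Some libraries stood apart. OA replicate 3 had the most H3K4me3 peaks of the 6 libraries (21033) and the fewest H3K27me3 peaks (9091, against 18801 to 47648 in the others). Vehicle replicate 3 had the fewest H3K4me3 peaks (16086) and the lowest recovered background, 0.45 reads against 0.633 to 0.853 in the other 5. Total read numbers were not analysed here. Peaks were found in all 6 vehicle and OA H3K4me3 libraries at KRT5, EGFR, KRT17 and ITGB4 among 8 basal epithelial markers. LAMB3 and CDH1 of that list were called in 2 vehicle and 3 OA libraries, and TP63 in 2 vehicle and 2 OA libraries. Of 3 luminal hormone-sensing markers, FOXA1 was called in all 6 libraries, ESR1 in 1 OA library and PGR in none. Of 6 neuronal markers, H3K4me3 was called in 1 OA library at NEFL, in 1 OA library at SNAP25 and in 1 vehicle library at RBFOX3, and in none at NEFM, STMN2 and SYN1. The basal keratin KRT14 had coverage of 1121, 747 and 0 bp in vehicle and 0 bp in each OA library. Of 3 fibroblast markers, PDGFRA was called in no vehicle and in all 3 OA libraries (389, 399 and 589 bp), COL1A1 in 2 vehicle and 3 OA libraries and COL1A2 in none. CD3E of T cells was called in none and PTPRC of leukocytes in 1 vehicle library. The part of these differences in the results was not tested. In bulk cells, a mark on fewer cells and less of a mark per cell cannot be told apart. The untreated H3K4me3 libraries had peaks at 12 and 9 members (8.57% and 6.43%, against 53.2% and 48.9% of all genes), and the IgG libraries at 1 and 0 (1.11% and 0.12% of all genes).

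H3K4me3 was scarce at channel genes in vehicle and was called at more of them in every OA library. A peak lay within 3 kb of a start site of 38, 25 and 15 members in vehicle replicates 1, 2 and 3, and of 43, 44 and 57 members in OA replicates 1, 2 and 3. The groups did not overlap. The counts were 12891, 12456 and 11528 over all genes in vehicle, and 12875, 13143 and 13845 in OA, so over the whole genome vehicle replicate 1 lay above OA replicate 1 and the groups overlapped. Over the 6 libraries together, 63 members had a peak in at least 1 (70.6% of all genes had one, against 45.0% of members), 11 had one in all 6 (56.3% of all genes, 7.86% of members) and 77 had none.

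**Figure D1:**
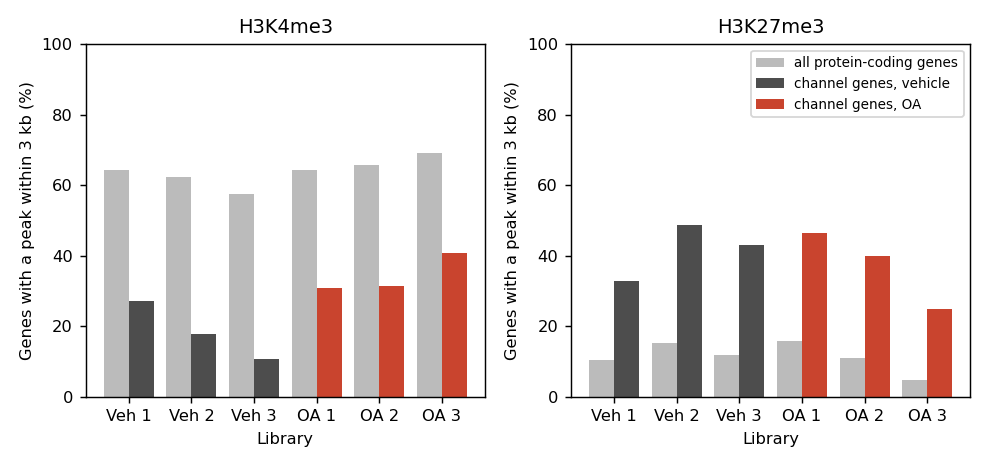
Share of genes with a peak within 3 kb of a start site (%, vertical axis) in each of the 3 vehicle and 3 OA libraries, for H3K4me3 (left) and H3K27me3 (right). Grey bars are all 20033 protein-coding genes and coloured bars the 140 channel genes. For H3K4me3 the channel genes stand at 10.7% to 27.1% in vehicle and at 30.7% to 40.7% in OA, and for H3K27me3 they stand above all genes in every library.

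Of the 140 members, 47 had an H3K4me3 peak in more OA than vehicle libraries and 2 in fewer, against 11.8% and 1.34% of all genes. Most other genes had little room to change, since they were called in all 6 libraries. Among the genes called in 1 to 5 libraries, 47 of 52 members and 82.6% of all genes had a peak in more OA than vehicle libraries, a direction that most such genes shared. Among the 98 members with no vehicle peak, 21 had a peak in at least 1 OA library (14.8% of such genes genome-wide) and 5 in all 3 (2.39%). OA replicate 3 alone accounted for 10 of the 12 members called in a single OA library and no vehicle library. The count of 47 fell to 23 (4.47% of all genes) when OA replicate 3 and vehicle replicate 3 were both left out, an alternative added after the data were seen. It was 37 without vehicle replicate 3 alone (7.59% of all genes), 38 without OA replicate 3 alone (9.6%) and 34 with an equal number of peaks in each library (9.35%).

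OA-only H3K4me3 regions lay within 3 kb of 8 members: KCND3, KCNH2, KCNH3, KCNH5, KCNK15, HCN2, SCN8A and CACNB3. This is 5.71% of members, against 1.33% of all genes (267). No member had a vehicle-only H3K4me3 region, against 0.02% of all genes (4). With peaks in at least 2 OA libraries and no vehicle library taken as enough, 12 members qualified (8.57%, against 4.23% of all genes), and 0 in the reverse direction, against 0.509%. All of these OA-only regions lay nearer to the member's own start than to that of any other protein-coding gene. The only H3K4me3 regions of 3 other members lay over a neighbour's start, at MTA3 for KCNG3, at CNTROB and TRAPPC1 for KCNAB3 and at CCDC22 for CACNA1F.

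The DNA at the start sites of these genes was rich in CpG. In the 300 bases from 250 before to 50 after the canonical start, the 8 members with an OA-only region held a median of 36 CpG dinucleotides (27 to 53), against 24 in the 11 members called in all 6 libraries, 33.5 in the 52 called in 1 to 5 and 14 in the 77 called in none. The median over all genes was 23. The promoters of 4 of the 8 genes follow, each as the 250 bases before the RefSeq start (GRCh38.p14), 5′ to 3′ on the gene's own strand, with every CpG in capitals. They are shown because the OA-only region lay over or beside them. KCNAB2, the member with the longest mean H3K4me3 coverage, and KCNN1, that with the longest mean H3K27me3 coverage, are given for comparison. The printed KCNN1 bases lay outside its H3K27me3 regions. Of those, chr19:17950035-17954117 lay over another start of the gene, and chr19:17965212-17966699 ended before the printed bases.
KCND3 (chr1:111989669-111989918, minus strand): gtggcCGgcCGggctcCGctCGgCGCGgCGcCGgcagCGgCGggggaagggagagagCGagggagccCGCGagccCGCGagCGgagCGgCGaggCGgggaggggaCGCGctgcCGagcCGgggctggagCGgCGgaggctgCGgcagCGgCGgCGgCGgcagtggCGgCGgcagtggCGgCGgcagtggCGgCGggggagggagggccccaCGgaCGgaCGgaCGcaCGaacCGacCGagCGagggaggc
SCN8A (chr12:51590983-51591232, plus strand): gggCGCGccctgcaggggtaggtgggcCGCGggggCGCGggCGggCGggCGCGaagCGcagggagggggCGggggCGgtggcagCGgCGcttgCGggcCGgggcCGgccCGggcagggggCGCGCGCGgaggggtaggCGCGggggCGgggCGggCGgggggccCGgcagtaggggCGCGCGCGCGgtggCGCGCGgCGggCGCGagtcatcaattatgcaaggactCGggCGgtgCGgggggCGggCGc
KCNH5 (chr14:63045459-63045708, minus strand): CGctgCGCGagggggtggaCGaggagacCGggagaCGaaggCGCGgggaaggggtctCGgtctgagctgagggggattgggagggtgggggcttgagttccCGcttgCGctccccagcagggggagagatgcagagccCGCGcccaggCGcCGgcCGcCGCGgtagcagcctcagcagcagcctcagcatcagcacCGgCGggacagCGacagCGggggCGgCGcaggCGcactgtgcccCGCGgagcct
HCN2 (chr19:589631-589880, plus strand): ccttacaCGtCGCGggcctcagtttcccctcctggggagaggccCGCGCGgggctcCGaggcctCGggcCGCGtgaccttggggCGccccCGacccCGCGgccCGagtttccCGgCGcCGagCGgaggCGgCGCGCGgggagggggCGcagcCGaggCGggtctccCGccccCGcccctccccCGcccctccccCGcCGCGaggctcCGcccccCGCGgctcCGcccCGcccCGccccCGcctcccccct
KCNAB2 (chr1:5992426-5992675, plus strand): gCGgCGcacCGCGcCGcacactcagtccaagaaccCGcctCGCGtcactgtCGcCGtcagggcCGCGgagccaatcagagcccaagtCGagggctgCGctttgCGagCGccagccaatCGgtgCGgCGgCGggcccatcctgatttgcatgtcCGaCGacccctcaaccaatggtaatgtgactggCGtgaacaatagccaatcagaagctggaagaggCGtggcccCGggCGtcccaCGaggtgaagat
KCNN1 (chr19:17966857-17967106, plus strand): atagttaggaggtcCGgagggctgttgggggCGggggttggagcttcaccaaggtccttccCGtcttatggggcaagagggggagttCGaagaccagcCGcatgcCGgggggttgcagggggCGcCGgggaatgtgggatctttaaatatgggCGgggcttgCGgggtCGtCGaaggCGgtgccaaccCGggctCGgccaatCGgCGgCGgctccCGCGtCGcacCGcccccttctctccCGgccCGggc
They held 44 (KCND3), 45 (SCN8A), 27 (KCNH5), 39 (HCN2), 27 (KCNAB2) and 24 (KCNN1) CpG dinucleotides in 250 bases.

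Among the pore-forming voltage-gated potassium channel genes, 17 of 40 had H3K4me3 in more OA than vehicle libraries and 0 in fewer, and 4 of the 8 members with an OA-only region were of this class. KCND3 encodes a channel of the rapidly inactivating A-type current. Its H3K4me3 coverage was 0 bp in each vehicle library and 394, 605 and 1707 bp in the OA libraries (902 ± 705 bp, SD, n = 3). Every OA library lay above every vehicle library, and OA replicate 3 had the longest coverage by far. The OA-only region, chr1:111989557-111990307, lay over the canonical start of the gene (ENSG00000171385.11) and the printed promoter. A second region, upstream of the gene and 918 bp from its nearest start, was called in OA replicates 2 and 3.

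A further 3 members of the ether-a-go-go branch of this class gave OA-only regions. KCNH3, expressed mainly in forebrain neurons, had coverage of 420, 330 and 983 bp in OA and 0 bp in each vehicle library. Its region, chr12:49537968-49538950, ended 80 bp before the start site, and its summits had pileups of 19, 20 and 46 reads over backgrounds of 1.90, 0.770 and 2.84. KCNH5 had 215, 290 and 630 bp in OA and 0 bp in vehicle, at a region 67 bp from one of its start sites (chr14:63045525-63046154). Those summits rested on 9, 6 and 12 reads, and in OA replicate 2 the peak stood at the 3.0 percentile of its library by p-value. KCNH2, the channel of the rapid delayed rectifier of heart muscle, had 83, 213 and 353 bp within the window and 0 bp in vehicle. Its region, chr7:150974776-150975488, lay in the gene over an exon of the canonical transcript, 2648 bp from the nearest annotated start, and not at a promoter. KCNH1, which was named after its values were seen, had 244, 0 and 721 bp in OA and 0 bp in vehicle.

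KCNK15 was the member of the two-pore domain class with an OA-only region; this class carries background potassium currents. Coverage there was 301, 0 and 0 bp in vehicle and 244, 627 and 1454 bp in OA, so that vehicle replicate 1 lay above OA replicate 1. The OA-only region (chr20:44745699-44746608) covered the start. The vehicle peak lay in a second region, 1186 bp from the start, that was also called in 2 OA libraries. KCNK1, the member of this class with the longest coverage, had 2042, 1877 and 1296 bp in vehicle and 1965, 2051 and 2051 bp in OA.

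Among the HCN genes, whose channels open on hyperpolarization and pace rhythmic firing, the outcomes differed. HCN2 had 0 bp in each vehicle library and 309, 499 and 426 bp in OA (411 ± 95.8 bp, SD, n = 3), the most even of the OA-only members that had 0 bp in vehicle. Its region, chr19:590148-590654, lay over an exon 267 bp from the start, with pileups of 15, 26 and 35 reads. HCN3 was marked in all 6 libraries, with 1096, 500 and 391 bp in vehicle and 1032, 1184 and 1088 bp in OA. The HCN3 region also covered the start of the neighbouring gene CLK2. HCN4 had 593 bp in OA replicate 3 and 0 bp in the other 5 libraries.

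Of the sodium channel genes, 3 of 10 pore-forming and 3 of 4 beta subunit genes had H3K4me3 in at least 1 library. SCN8A, which encodes a pore of the axon initial segment, had 189, 0 and 0 bp in vehicle and 227, 497 and 1014 bp in OA, and the groups did not overlap. Of its 2 regions, the one over the canonical start (chr12:51591203-51591694) was OA-only, with pileups of 12, 18 and 31 reads. The other, over an upstream start, was called in vehicle replicate 1 and in 2 OA libraries. SCN11A, a channel of sensory neurons, was covered in all 6 libraries, by 719, 791 and 633 bp in vehicle and 799, 886 and 1022 bp in OA. The SCN11A region also covered the start of the neighbouring gene WDR48. Of the 4 beta subunit genes, 3 had peaks in more OA than vehicle libraries, and SCN3B had the longest coverage, with 754, 0 and 158 bp in vehicle and 849, 693 and 1105 bp in OA.

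Calcium channel beta subunits, which bring the pores to the membrane, were the class most often marked, with 3 of 4 covered in all 6 libraries, CACNB1 among them by a region over the start of its neighbour RPL19. At CACNB3 coverage was 1228, 1090 and 555 bp in vehicle and 1340, 1871 and 1738 bp in OA. One region of this gene (chr12:48814042-48815795) was called in all 6 libraries, and the OA-only region was a second, of 452 bp, over the canonical start (chr12:48818236-48818687). The OA-only peak thus lay beside another start of the gene that was marked in vehicle too. CACNB2 had 720, 381 and 340 bp in vehicle and 907, 1162 and 1497 bp in OA, and the groups did not overlap. CACNB4 had 0 bp in vehicle and 0, 467 and 1669 bp in OA. Of the pore-forming genes, CACNA1S of skeletal muscle had the longest coverage, with 273, 206 and 0 bp in vehicle and 762, 633 and 923 bp in OA. The CACNA1S region lay upstream of the gene, 1608 bp from its nearest start. The alpha2delta gene CACNA2D3 had 0 bp in vehicle and 0, 182 and 810 bp in OA, and CACNA2D2 had 590, 0 and 0 bp against 0, 262 and 978 bp. None of the 8 gamma subunit genes had an H3K4me3 peak in any of the 6 libraries.

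The longest H3K4me3 coverage was found at potassium channel genes that were marked in every library. Coverage was summed over all start sites of a gene, so the length searched differed between genes. KCNAB2 had 44 start sites and 53816 bp of window, of which a mean of 4.08% was covered over the 6 libraries. At KCNS3 it was 13.17% of 7537 bp. KCNAB2, a beta subunit of shaker-type channels, had 2208, 2423 and 919 bp in vehicle and 1994, 2932 and 2703 bp in OA. The KCNAB2 region called in all 6 libraries also covered the start of the neighbouring gene NPHP4. KCNIP3, a calcium-binding partner of A-type channels, had 2402, 1539 and 766 bp against 1406, 1441 and 1630 bp, and KCNQ5, a pore of the M current, 1624, 1337 and 1250 bp against 1557, 1359 and 1675 bp. Vehicle replicate 3 had the lowest value of the 6 at each of the 3. KCNIP2 had a region called in 2 OA libraries and no vehicle library, 909 bp from a start. Its total coverage was 186, 0 and 0 bp in vehicle and 243, 217 and 913 bp in OA. KCNN4, the intermediate-conductance channel of epithelia and blood cells, had 1601, 1360 and 0 bp against 836, 1428 and 1233 bp. The inward rectifier KCNJ2 had 977, 0 and 0 bp against 895, 1470 and 1712 bp, so the groups overlapped through vehicle replicate 1.

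**Figure D2:**
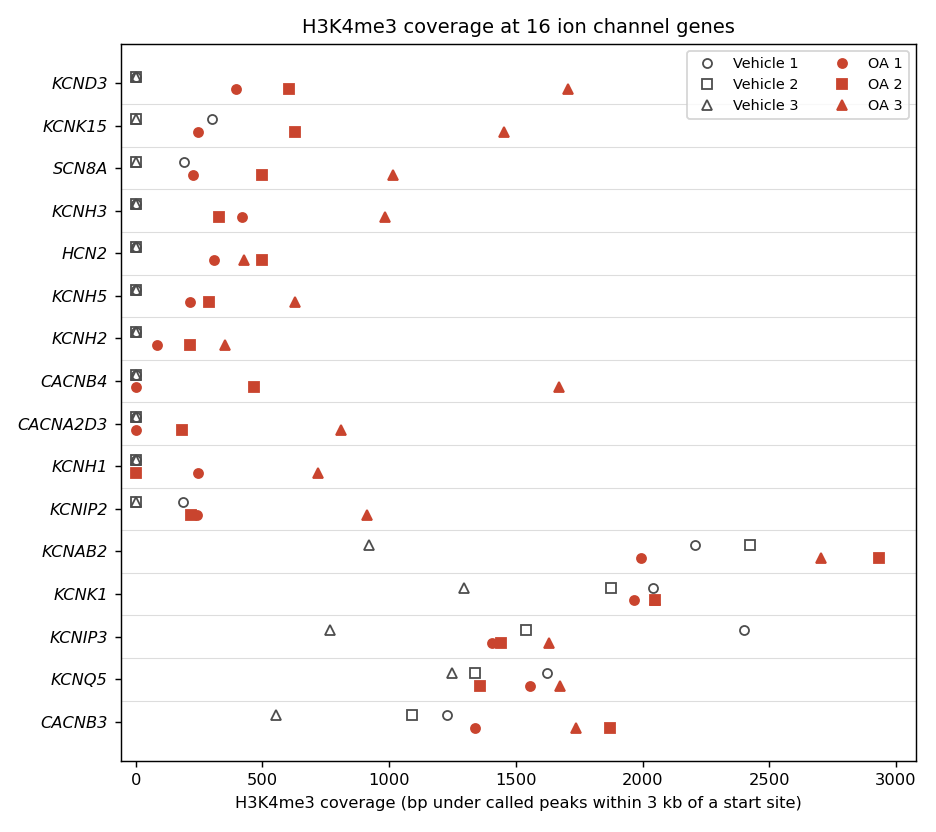
H3K4me3 coverage (bp under called peaks within 3 kb of a start site, horizontal axis) in each library at 16 channel genes: those with an OA-only region, those with a region called in at least 2 OA libraries and no vehicle library, and the 5 with the longest mean coverage. Open dark symbols are vehicle and filled red symbols OA, with shape for the replicate. The upper 11 genes lie at or near 0 bp in vehicle with OA replicate 3 mostly to the right, and the lower 5 are covered in all 6 libraries.

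The OA-only peaks were small. Across the 8 OA-only regions, the pileup at the summit ran from 6 to 64 reads and the percentile by p-value within a library from 3.0 to 51.7. KCNH3 had the highest lowest rank, with percentiles of 35.7, 33.1 and 51.7 in OA replicates 1, 2 and 3. At a q-value of at most 1e-05, OA-only regions lay at 5 members, CACNB3, HCN2, KCNH3 and SCN8A among them. The count was also 5, with those 4 genes among them, when each library was given an equal number of peaks.

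Coverage was compared with limma on log2(bp + 100), over the genes with a peak in at least 2 of the 6 libraries. Of the 140 members, 49 passed this filter for H3K4me3. A member could pass it through the OA libraries alone, so the members that passed are not a neutral sample. At a Benjamini-Hochberg adjusted p of 0.05 no gene was called in either direction (0% of 13439 genes), and 0 of the 49 members. At an unadjusted p of 0.05, 16 members were higher in OA and 0 lower, against 5.07% and 0.0744% of all genes tested. The 16 of 49 became 10 of 47 without OA replicate 2, where 504 of 13209 genes passed that p in either direction, and 6 of 43 without OA replicate 3 (322 of 13023 genes). Without OA replicate 3 and vehicle replicate 3 it was 5 of 42, beside 1036 of 13002 genes. The median log2 difference over all genes tested was 0.16, with 78.0% of genes above 0. Under quantile normalization it was -0.05 with 43.0% above 0, and 18 genes, none of them members, were called higher. Genes with little coverage moved most throughout: below a mean of 500 bp over the 6 libraries, 19.9% of 1343 genes were higher at that p (11 of 26 members), and from 1000 bp upwards 2.04% of 9302 (2 of 8 members). The lowest adjusted p of a member was that of KCND3, with a log2 difference of 3.10 ± 0.66 (SE) and an adjusted p of 0.297. HCN2 differed by 2.34 ± 0.57 (adjusted p = 0.355), KCNH3 by 2.64 ± 0.62 (adjusted p = 0.339) and KCNH5 by 2.16 ± 0.63 (adjusted p = 0.536). All 4 genes had 0 bp in vehicle, so the size of these differences depends on the added 100 bp.

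H3K27me3 was called far more often at channel genes than over all genes, though most of its peaks were weak. At a q-value of at most 1e-05, 177 merged H3K27me3 regions were left genome-wide in place of 32643. Without that limit, 93 members had an H3K27me3 peak in at least 1 of the 6 libraries (66.4%, against 25.3% of all genes). A peak in all 6 was present at 21 members (2.11% of all genes). In vehicle the peaks lay at 46, 68 and 60 members, and in OA at 65, 56 and 35. Genome-wide, vehicle replicates 1, 2 and 3 had a peak at 2092, 3038 and 2372 genes (10.4%, 15.2% and 11.8%). For OA replicates 1, 2 and 3 these numbers were 3147, 2174 and 929 genes (15.7%, 10.9% and 4.64%). OA replicate 3 was thus the lowest library over all genes as well as over members. The low count of OA replicate 3 went with its small number of peaks, and the groups overlapped. The longest mean coverage was at KCNN1, a small-conductance calcium-activated potassium channel gene, with 2278, 4576 and 4301 bp in vehicle and 3586, 3262 and 176 bp in OA. CACNA2D1 had 1755, 2412 and 1818 bp against 4295, 2168 and 363 bp. KCNN3 had 2217, 1541 and 2497 bp against 1832, 2099 and 1412 bp, and KCNJ9, a G protein-gated inward rectifier, 1371, 2662 and 1758 bp against 1747, 3115 and 544 bp. The length searched differed here too: the mean share covered was 31.1% of 6001 bp at KCNJ9 and 3.96% of 53923 bp at CACNA2D1. OA replicate 3 was the lowest of the 6 libraries at each of these 4 genes.

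Differences in H3K27me3 calls ran both ways. SCN8A was the 1 member with an OA-only region (0.714%, against 0.0599% of all genes), in an intron 2348 bp from a start site. Its H3K27me3 coverage was 0, 166 and 0 bp in vehicle and 1430, 527 and 281 bp in OA. KCNA2, a delayed rectifier of axons, and CACNA1E, the R-type calcium channel pore, had vehicle-only regions (1.43%, against 0.564%), yet both kept other H3K27me3 peaks in every OA library. KCNA2 had 1986, 2379 and 1996 bp in vehicle and 1126, 858 and 1261 bp in OA without overlap, and CACNA1E had 1552, 3115 and 1737 bp against 2024, 1685 and 574 bp with overlap. At a q-value of at most 1e-05 no member had an OA-only or a vehicle-only H3K27me3 region. When 2 libraries sufficed and the opposite group had none, 5 members had such a region in OA (3.57%, against 0.834%) and 14 in vehicle (2.9% of all genes). Those in OA were SCN8A, CACNA1A, CACNA1D, HCN4 and KCNA10. Those in vehicle included CACNA2D3 (0, 1765 and 847 bp against 772, 0 and 0 bp), KCND3 (443, 242 and 497 bp in vehicle, 0 bp in each OA library), HCN2 (650, 168 and 0 bp against 0 bp in each OA library) and KCNH2 (908, 1685 and 1118 bp against 1177, 0 and 0 bp). KCNJ6 had 892, 1232 and 0 bp against 296, 0 and 0 bp, CACNG5 0, 1543 and 1984 bp against 0, 749 and 0 bp, SCN2A 0, 1573 and 602 bp against 929, 0 and 0 bp, KCNK17 0, 182 and 971 bp against 0 bp in each OA library, and CACNB2 0, 3258 and 395 bp against 1797, 232 and 170 bp. HCN4 had one region of each kind. The counts turned on single libraries, as did those over all genes. Vehicle-only members numbered 9 without vehicle replicate 1, where the count over all genes was 432 in place of 113. They numbered 6 without vehicle replicate 3, OA replicate 1 or OA replicate 2 (231, 259 and 226 genes). OA-only members numbered 3 without OA replicate 3 (111 genes in place of 12) and 2 without vehicle replicate 3, OA replicate 1 or OA replicate 2 (18, 39 and 40 genes).

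A peak was present in more OA than vehicle libraries at 24 members (7.41% of all genes) and in fewer at 37 (11.3%). Among genes called in 1 to 5 libraries, 24 of 72 members and 32.0% of all genes had one in more OA than vehicle libraries. This balance turned under some settings. Without OA replicate 3 and vehicle replicate 2, 30 members had one in a larger and 19 in a smaller share of OA libraries, beside 1903 and 1115 of all genes. With equal peak numbers the counts were 25 and 19 (1146 and 1134 genes), and without OA replicate 3 alone 33 and 31 (2221 and 1934 genes). In limma, 73 members passed the filter, and 0 of them were called higher (0% of 3244 genes) or lower (0.0308%, 1 gene). At an unadjusted p of 0.05, 0 members were higher (0.0617% of genes) and 2, KCNN1 and KCNH2, were lower (5.43%). The median log2 difference over all genes tested was -0.57. KCNN1 differed by -1.28 ± 0.57 on the log2 scale (adjusted p = 0.690), a value that turned to 0.12 without OA replicate 3 and vehicle replicate 2, the libraries with the fewest and the most H3K27me3 peaks.

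**Figure D3:**
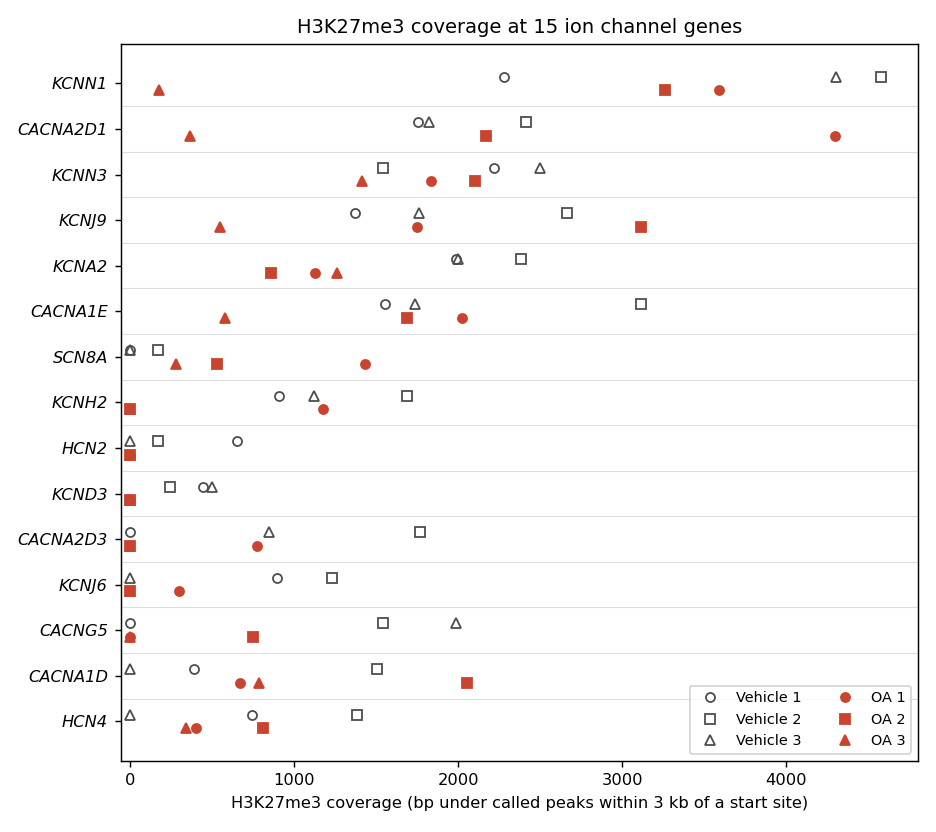
H3K27me3 coverage (bp under called peaks within 3 kb of a start site, horizontal axis) in each library at 15 channel genes named in the text. Open dark symbols are vehicle and filled red symbols OA, with shape for the replicate. KCND3 and HCN2 are at 0 bp in all 3 OA libraries, SCN8A lies to the right in OA, and at the upper 4 genes OA replicate 3 is the lowest point.

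At 3 members the OA-only H3K4me3 region overlapped an H3K27me3 region. That of KCNH3 overlapped one called in 2 vehicle libraries and 1 OA library (chr12:49537086-49538942), that of KCNH5 inside one called in 3 and 1 (chr14:63045340-63046962), and that of HCN2 over one called in 2 vehicle libraries and no OA library (chr19:590274-590692). The 2 marks met at few members in vehicle. Both were called in at least 2 vehicle libraries at 5 members (3.57%, against 2.4% of all genes), namely KCNS3, CACNB2, KCNMB4, SCN9A and SCN11A, and in at least 2 OA libraries at 13 (9.29%, against 2.73%). KCNS3, a modulatory potassium channel subunit, had 1317, 892 and 0 bp of H3K4me3 in vehicle and 1161, 1135 and 1451 bp in OA, beside 1407, 1163 and 1226 bp and then 800, 1724 and 0 bp of H3K27me3. KCNMB4, the neuronal beta subunit of the BK channel, had H3K4me3 coverage of 895, 820 and 0 bp against 740, 1259 and 1527 bp and H3K27me3 coverage of 498, 1484 and 762 bp against 403, 0 and 0 bp. SCN9A, a pore of pain-sensing neurons, had H3K4me3 coverage of 0, 392 and 337 bp against 240, 1008 and 787 bp. Of the 59 members with H3K27me3 in at least 2 vehicle libraries, 23 had H3K4me3 in more OA than vehicle libraries (39.0%, against 26.8% of such genes genome-wide). Of the 61 members without H3K27me3 in any vehicle library, 16 did (26.2%, against 9.01%). The 9.01% is over genes that include many with H3K4me3 in all 6 libraries, which could not gain one. Such genes were 56.3% of all genes and 7.86% of members. Where vehicle had H3K27me3 in at least 2 libraries and no H3K4me3, 9 of 46 members had H3K4me3 in at least 2 OA libraries (19.6%, against 11.3%): KCND3, KCNH1, KCNH2, KCNH3, KCNH5, HCN2, CACNB4, CACNA2D3 and CACNA1G. Where vehicle had neither mark, 0 of 40 members did so, against 5.61%. The 2 marks were measured in separate libraries, so it was not seen whether they lay on the same molecules.

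**Figure D4:**
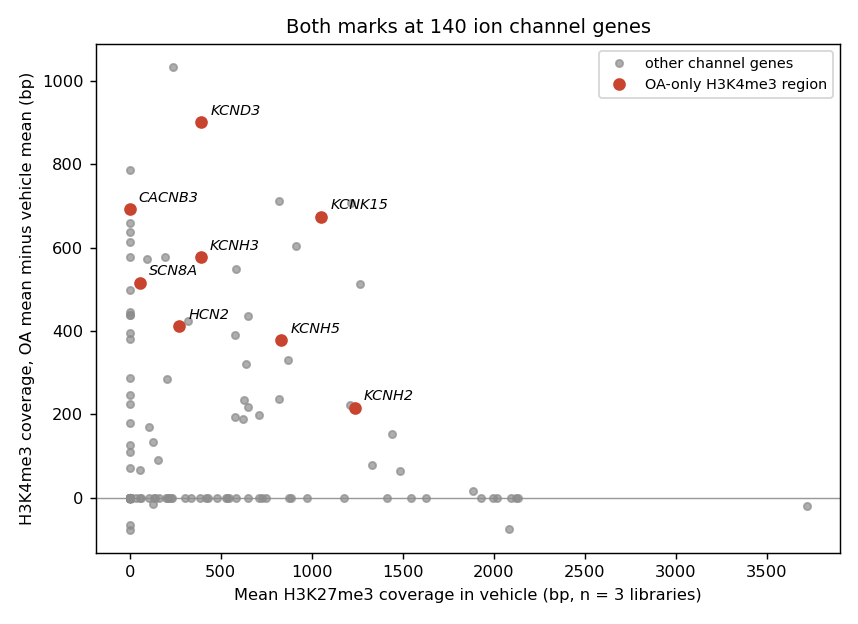
Mean H3K27me3 coverage in vehicle (bp, n = 3, horizontal axis) against the difference of the H3K4me3 means, OA minus vehicle (bp, vertical axis), for the 140 channel genes, each a point. Red points are the 8 genes with an OA-only H3K4me3 region, which lie at 216 to 902 bp on the vertical axis and between 0 and 1237 bp of H3K27me3, while KCNN1, at the far right with 3718 bp, is at -19.3 bp.

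**Figure D5:**
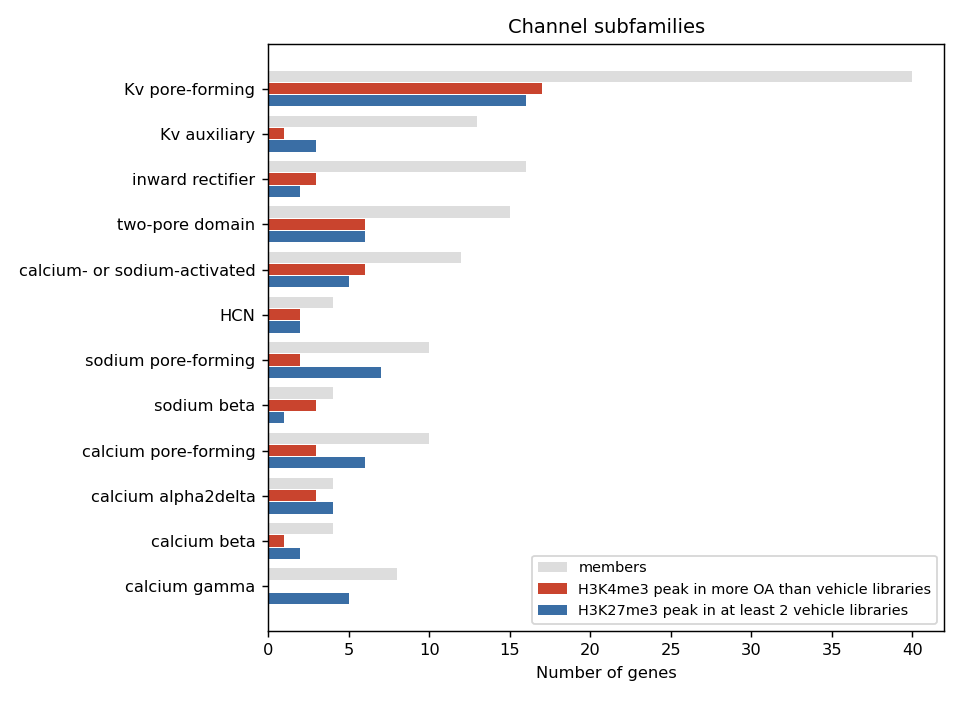
Number of genes (horizontal axis) in each channel class: members (grey), members with an H3K4me3 peak in more OA than vehicle libraries (red) and members with H3K27me3 in at least 2 vehicle libraries (blue). The pore-forming voltage-gated potassium channels give 17 of the 47 members with H3K4me3 in more OA libraries, and the calcium gamma subunits give 0 of 8 with 5 of 8 under H3K27me3.

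The letters of known elements were counted in the 300 bases around each canonical start, on both strands. Only exact matches were counted, so an element with 1 changed letter was not seen. One part of the REST element, TTCAGCACC, was found at 6 members (4.29%, against 0.369% of all genes), and 5 of the 77 members without H3K4me3 in any of the 6 libraries held it. Letters from its other part, GGACAGC, were found at 15 (10.7%, against 6.82%), KCNH5 among them. The E-boxes CAGGTG and CAGCTG were found at 25 (17.9%, against 20.4%) and 32 members (22.9%, against 17.7%), and the cyclic AMP response element TGACGTCA at 1 (0.714%, against 2.69%). None of the 8 members with an OA-only region held TTCAGCACC, CAGCTG or TGACGTCA in that window, and 2 of them, KCNH2 and CACNB3, held CAGGTG.

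Other genes of excitable cells, taken from fixed lists, were counted in the same way, to be read against the 11.8% of all genes with H3K4me3 in more OA than vehicle libraries, the 1.34% with it in fewer and the 1.33% with an OA-only region. Of 61 ligand-gated channel genes, 17 had H3K4me3 in more OA libraries and 1 in fewer, and GRIK2, a glutamate receptor gene, had an OA-only region. Of 79 other cation and anion channel genes the counts were 17 and 0, with TRPV3, a channel of keratinocytes, OA-only. Of 30 genes of transmitter release they were 8 and 0, with RIMS2 and SV2B OA-only. Of 17 genes of channel anchoring and transport they were 3 and 0, with none OA-only. The 10 genes of the REST complex were already marked, 9 of them in all 6 libraries, and 1 in more OA than vehicle libraries. No gene of these 5 lists had a vehicle-only H3K4me3 region. RIMS2 and SV2B act in synaptic vesicle release.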

How the data were processed

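CUT&RUN libraries of MCF-10A cells were analysed from the peak lists that the authors deposited, on build hg38: 3 vehicle and 3 OA libraries for each of H3K4me3 and H3K27me3, and 2 untreated libraries each for H3K4me3 and IgG. Per the labels the submitters' processing notes name MACS2 2.2.7.1, SICER, DiffBind 3.9 and ChIPseeker 1.8.6. The study's methods name SICER2 for H3K27me3, although the deposited lists have the broadPeak layout. The aligner, the control used and the handling of duplicates are not given in the sources used here. Each deposited peak has a fold enrichment, a ratio of pileup to background, with a p-value and a q-value on the −log10 scale, all as the authors' peak caller gave them. Peaks were called per library, and none lay past a chromosome end.

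Peaks of 1 mark that overlapped by at least 1 bp were merged and kept where 2 libraries had one. Windows of 3 kb on either side of every GENCODE 44 start site of a protein-coding gene were searched. Covered bp per gene was compared between OA and vehicle with limma 3.58.1 in R 4.3.3 on log2(bp + 100), over genes with a peak in at least 2 of 6 libraries, without a replicate block, and p-values were adjusted by Benjamini-Hochberg over all genes tested. The threshold was 0.05. The scripts used Python 3.11.15, numpy 2.4.6, pandas 2.3.3 and matplotlib 3.10.9, and were tested on simulated data. Whole-read pileups were solved from fold and −log10 p (up to 250 and up to 1500 reads) for 99.3% to 100% of the H3K4me3 and IgG peaks tried, a step added after the data were seen. Composition and motifs were read from hg38 at canonical starts, and printed promoters from the RefSeq GRCh38.p14 table, which matched 101 of 140 members.

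The members and lists were chosen with earlier results of these data known. Named genes were those with OA-only or vehicle-only regions, those past the limma threshold, up to 10 per mark and direction with a region in at least 2 libraries of one group only, the 5 with the longest coverage of each mark, up to 10 with both marks in vehicle, the HCN genes, the member with the longest H3K4me3 coverage of each other class, and list genes with regions of one group only. Genes outside this rule are named only where a count lists its members. Alternatives covered the q-value, equal peak numbers, start sites, window, overlap, pseudocount, filter, normalization, replicate block, IgG regions, joined broad peaks and each library left out. Some genes that these rules would name are not reported here.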

Additional observations from a re-analysis of the deposited data

Results flagged for a closer look

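The untreated H3K4me3 libraries entered no comparison between vehicle and OA, and carried a signal above that of the IgG controls: peaks lay within 3 kb of a start site of 12 members in untreated replicate 1 and of 9 in untreated replicate 2, against 1 (CACNA1H) and 0 in the IgG libraries. Over all genes the shares were 53.2% and 48.9% for H3K4me3 and 1.11% and 0.12% for IgG, beside 8.57% and 6.43% of the members for H3K4me3. KCNAB2, HCN3, CACNA1S, KCNK1, KCNQ1, CACNB3 and KCNAB3 were called in both. None of the genes with an OA-only region was called in either library, except CACNB3. With 12924 and 11242 peaks, the untreated libraries held fewer peaks than any vehicle or OA H3K4me3 library.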

How the results depend on the processing

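The H3K4me3 OA-only count of 8 (267 of all genes) was 5 at a q-value of at most 1e-05 (269 genes), 5 with equal peak numbers (247), 5 when peaks had to cover 50% of a region (284), and 8 to 12 with 1 library left out (280 to 702). At 50% covered the 5 were CACNB3, HCN2 and KCND3 of the 8, with CACNA1S and CACNB2. No member had a vehicle-only H3K4me3 region in any of these. Over all genes the vehicle-only count of 4 was 1 at that q-value, 11 with equal peak numbers and 11 at 50% covered. It was 4 to 91 with 1 library left out, with 91 without vehicle replicate 3. Without OA replicate 3 and vehicle replicate 3 it was 214 genes, again with no member. For H3K27me3, the OA-only count was 1 (12 of all genes). It was 0 at that q-value (0 genes), with equal peak numbers (15) and with canonical starts only (7). It was also 0 within 1 kb (8) and at 50% covered (3). The count was 5 with 2 libraries of one group enough (167) and 6 without OA replicate 3 and vehicle replicate 2 (209). With 1 library left out it was 1 to 3 (15 to 111). The vehicle-only count of 2 (113 of all genes) was 0 at that q-value (1 gene) and with equal peak numbers (35). It was 1 with canonical starts only (70) and with peaks within 5 kb joined (94). With 2 libraries enough it was 14 (580). With 1 library left out it was 3 to 9 (131 to 432), with 9 without vehicle replicate 1. The counts by number of libraries, and their alternatives, were chosen after seeing the data. Members with H3K4me3 in a larger share of OA libraries numbered 47 (2358 of all genes). They numbered 37 to 49 with 1 library left out (1521 to 2534) and 23 without OA replicate 3 and vehicle replicate 3 (896). Those in a smaller share numbered 2 (269 of all genes) and 4 without that pair (366). They numbered 1 with equal peak numbers (319) or canonical starts only (211). With 1 library left out they numbered 1 to 5 (233 to 472). Of these, 1 was without vehicle replicate 1, 5 without vehicle replicate 2, and 4 without vehicle replicate 3 or OA replicate 3. For H3K27me3 the larger count of 24 was 1 (7 of all genes) at a q-value of at most 1e-05. The smaller count of 37 was 1 there (31 genes). The smaller one was 19 with equal peak numbers (1134 genes) and 19 without OA replicate 3 and vehicle replicate 2 (1115). In those 2 settings the larger was 25 (1146) and 30 (1903), so that the balance turned. The log2 difference of KCNH2 H3K4me3 turned to -0.24 under quantile normalization, and that of KCNN1 H3K27me3 to 0.12 without OA replicate 3 and vehicle replicate 2. The cause was not tested. Of 172 alternatives of the counts, 137 stayed within 1.5 times. These include the limma counts of called members and the vehicle-only H3K4me3 count. Both were 0 in every setting, so their agreement says nothing about stability. Of 285 alternatives of 18 single members, 283 kept the direction. Those members had been picked by a low unadjusted p in limma on these same libraries. The alternatives reused most of the same values, so a kept direction is weak evidence.

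In limma, 0 members were called in every alternative. With the replicate block this count was also 0 for both marks, with 11 members at an unadjusted p of 0.05 for H3K4me3. No shared effect of replicate number was seen: same-numbered libraries correlated at -0.02, 0.19 and -0.11 for H3K4me3 and at 0.11, 0.04 and 0.02 for H3K27me3. Vehicle replicate 1 and OA replicate 3 correlated at 0.22 for H3K4me3. Whether same-numbered cultures were handled together cannot be told from these values. At a q-value of at most 1e-05 the H3K27me3 fit held 9 genes and no member, so it gave no value. Quantile normalization moved the median log2 difference of all genes from 0.16 to -0.05 for H3K4me3 and from -0.57 to -0.03 for H3K27me3. Coverage of called peaks depends on depth, which was not analysed here, and an absent call is not an absent mark.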
